A study of Mus musculus with 8 samples.

Results

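The heat shock proteins and their J-domain partners were followed across 8 microarrays of mouse perigonadal white adipose tissue (pgWAT). The set held every gene whose array symbol names an HSP70, HSP110, HSP90, small heat shock protein, mitochondrial chaperonin or DNAJ gene of the A, B or C class, with the ER chaperone Hspa5 left out. The array carried 86 probes for 60 such genes, and 45 genes had a probe above the background limit on 3 or more of the 8 arrays. They are 45 of the 9686 genes above that limit in all. Intensity is the deposited brightness of a probe on a linear scale, and the limit lay 7.5 units above the mode of all values, 98.5, where probes without signal lie. Fold changes are differences of group means after background correction, normalization and log2.

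Chaperones bind proteins that are not yet folded or have lost their fold. HSP70 proteins do so in cycles of ATP hydrolysis, which J-domain proteins start and HSP110 proteins help to reset, while HSP90 acts on proteins near their final shape, small heat shock proteins hold unfolded proteins, and the mitochondrial chaperonin encloses them. After heat or oxidative stress the transcription factor HSF1 switches on many of these genes through repeated nGAAn units in their promoters, and unfolded proteins in the endoplasmic reticulum (ER) switch on another group. OGT adds the sugar O-GlcNAc to many cytosolic and nuclear proteins.

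The arrays compared male mice of strain B6 with the floxed Ogt allele alone (Con, 5 arrays, wildtype in the labels) with littermates that also carried Cre under the Adiponectin promoter, which removes Ogt from adipocytes (FKO, 3 arrays). All mice had eaten a high-fat diet for 3 days, and the labels give an age of 15 weeks. Adipocytes are 1 of several cell types in pgWAT, so that fewer cells of a type and less RNA per cell cannot be told apart. The p-values below measure the spread between these mice only.

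The labels were checked against Ogt and tissue markers. The brightest Ogt probe gave intensities of 188, 264, 199, 232 and 267 on Con 1 to Con 5, and of 296, 177 and 259.9 on FKO 1 to FKO 3, so that Ogt did not part the arrays by label and arrays are named by their labels throughout. Dimmer Ogt probes gave log2 fold changes of 0.0055 and −0.037 (standard errors 0.21 and 0.18). Like the brightest probe, they were lowest on Con 1, Con 3 and FKO 2. Whether the probes lie in the deleted exons is not settled here, and a sign given below compares labels only. The 9 measured adipocyte markers had a summed intensity of 43361 to 49944 on the Con arrays and of 37314 to 44774 on the FKO arrays. Of the epididymis markers, 12 of 14 had a probe and 9 were above the limit, with a summed intensity of 18689 on FKO 1, 26591 on FKO 3 and 4547 on Con 2, against 1215 to 1580 on the other 5 arrays. Lcn5, Lcn9 and Ros1 of that list were not above the limit. Of those above it, Lcn8 read 110.8 to 116.6 with Con 5 highest, and Defb15 read only 102.6 to 110.2. Most of the sum on FKO 1 and FKO 3 came from Spink8 (9243 and 9982) and Adam7 (3939 and 7925).

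Promoters of 5 members show the sequences through which members of this set are known to be switched. They are given 5′ to 3′ on the strand of the gene from RefSeq windows of 250 bases before to 50 bases after each start (build GRCm38.p6), with the searched motif in capitals. The heat shock element was searched as 3 units, GAANNTTCNNGAA or its complement TTCNNGAANNTTC, and as 2 units, GAANNTTC or TTCNNGAA, and the ER stress element as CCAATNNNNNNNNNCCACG, all on both strands. Every match of 3 units also holds matches of 2 units.
Hspd1: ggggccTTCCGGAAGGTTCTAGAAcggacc
Hspa1a: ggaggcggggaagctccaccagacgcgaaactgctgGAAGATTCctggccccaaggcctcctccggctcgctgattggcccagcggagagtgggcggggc
Hspb1: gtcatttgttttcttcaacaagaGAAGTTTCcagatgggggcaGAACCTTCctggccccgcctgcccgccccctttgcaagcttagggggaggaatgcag
Dnajb6: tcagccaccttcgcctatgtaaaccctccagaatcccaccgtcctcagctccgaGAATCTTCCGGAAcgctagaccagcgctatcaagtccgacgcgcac
Dnajc3: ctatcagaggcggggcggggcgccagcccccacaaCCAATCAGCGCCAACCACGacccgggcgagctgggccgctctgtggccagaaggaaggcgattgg

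The Hspd1 stretch lies at chr1:55088053-55088082 on the minus strand, between Hspd1 and Hspe1, the 2 chaperonin genes, which run head to head with 215 bases between their starts. Its run of units starts 144 bases upstream of Hspd1 and 89 bases upstream of Hspe1 as each gene's strand is read, so that 1 run of units lies in the windows of both. The Hspa1a stretch (chr17:34972197-34972296, minus strand) holds 1 match of 2 units and the Hspb1 stretch (chr5:135887779-135887878, plus strand) holds 2. The Dnajb6 stretch (chr5:29735798-29735897, plus strand) holds 3 units starting 46 bases upstream, and the Dnajc3 stretch (chr14:118937792-118937891, plus strand) holds the ER stress element 105 bases upstream. Of the 45 members, 35 had a window in the table. The 3-unit element was found in 4 of these (Dnajb6, Hspd1, Hspe1 and Hsph1, in the last after the start) and in 0.662% of the 27025 genes with a window. The 2-unit form was found in 13 members and in 17.0% of genes, and the ER stress element in 1 member and in 0.137% of genes. A match is a run of letters and no measured binding.

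The question put to the arrays was whether chaperone transcripts differ with the loss of OGT in adipocytes early on a high-fat diet. No member passed limma with Benjamini-Hochberg adjustment over all 13925 probes, where the smallest adjusted p was 1, and the share of all genes that passed was 0%. At an unadjusted p under 0.05, 5 members (Hsph1, Dnaja4, Dnajc16, Hspd1 and Hspa4) had lower and 2 (Dnajc10 and Dnajc6) had higher values on the FKO arrays. The background shares were 2.15% of all genes in the lower and 2.54% in the higher direction, against 11.1% and 4.44% of the members. On the background-corrected log2 values used here, the t-test of the methods (p under 0.01 and a fold above 1.5) passed 0 members and 0.0103% of all genes. The paper applied these thresholds to its quantile-normalized values and reports more genes. The counts rest on unlike input, and the reason for the difference was not tested. Every FKO array lay below every Con array for 3 members (Dnajc16, Hspa4 and Hspb6), or 6.67%, against 1.47% of all genes, and above for 1 (Dnajc5), or 2.22%, against 1.19%.

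Over the 45 members the log2 fold changes (FKO over Con) ran from −0.91 to 1.48 with a median of −0.058, beside a median of −0.016 over all 9686 genes. The sign was negative for 31 members, or 68.9%, against 56.6% of all genes. By family the medians were −0.15 for 7 HSP70 and HSP110 genes, −0.28 for 5 small heat shock protein genes, −0.24 for the 2 chaperonin genes, −0.086 for 4 A-class, −0.066 for 7 B-class and −0.014 for 19 C-class J-domain genes. A list of 13 genes that heat is known to induce had 10 measured members, 7 with a negative and 3 with a positive sign and a median of −0.17; 2 of them (Hsph1 and Hspd1) had an unadjusted p under 0.05.

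**Figure D1:**
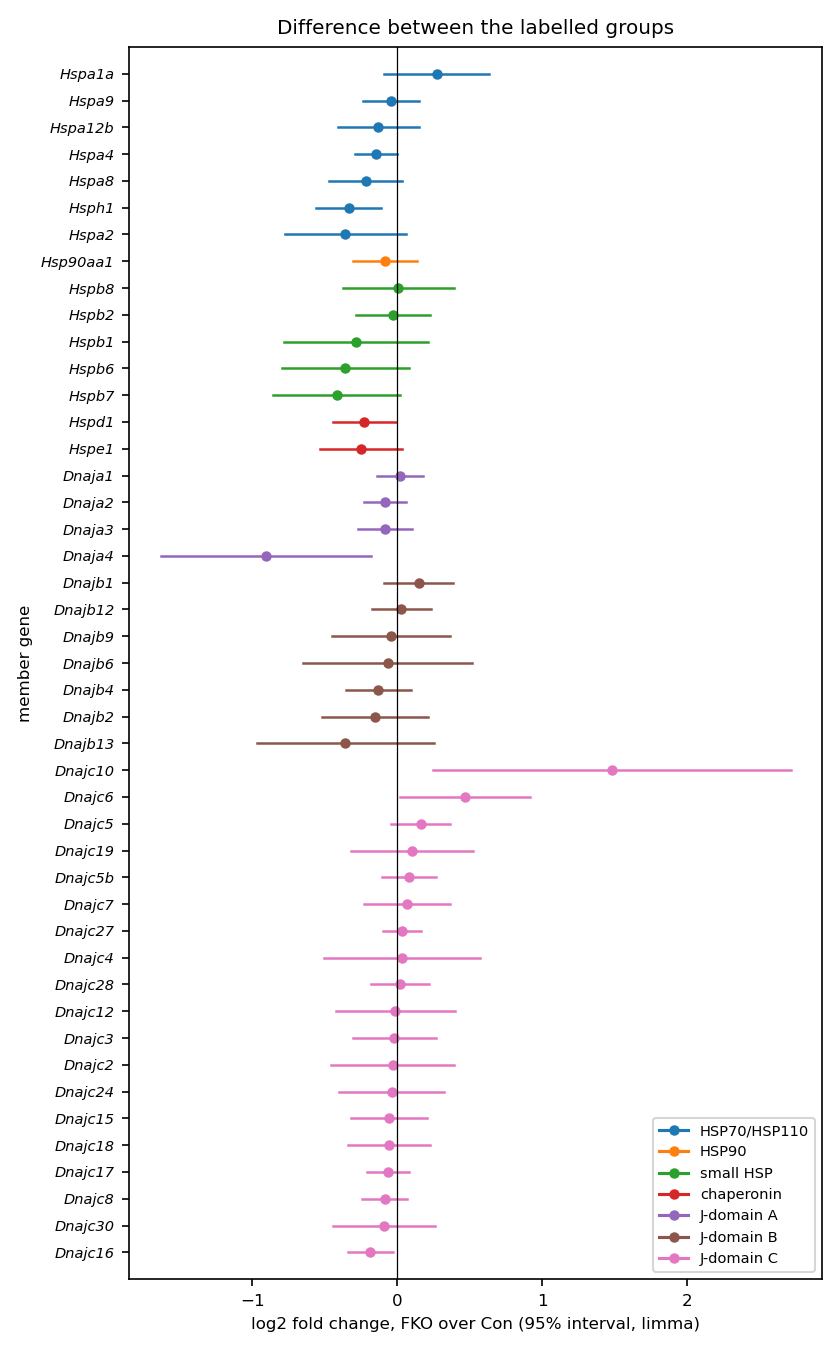
Log2 fold change (horizontal axis, FKO over Con, 5 and 3 arrays) of each of the 45 members (vertical axis), coloured by family, with limma's 95% intervals as bars. Dnajc10 at 1.48 and Dnaja4 at −0.91 lie farthest from 0, and both have wide bars.

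Hspa8 encodes the constitutive cytosolic HSP70, which also strips clathrin from vesicles. Its brightest probe read 7627, 8691, 8402, 7804 and 8463 on Con 1 to Con 5 and 6493, 6261 and 8593 on FKO 1 to FKO 3. FKO 1 and FKO 2 lay below all Con arrays and FKO 3 lay among the highest, so the groups overlapped, with a log2 fold change of −0.22 (standard error 0.11, p = 0.143 by a two-sided exact permutation test). A second Hspa8 probe gave −0.20 (standard error 0.18), but with FKO 3 among its lowest arrays at 2191, 2016 and 1619.7 on FKO 1 to FKO 3 against 2176, 1563, 2406, 2537 and 2529 on the Con arrays. The 2 probes therefore shared the sign of the group difference and not the order of the arrays.

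Hsph1, which encodes the inducible HSP110 that resets HSP70, had the smallest limma p of the set. Its intensities were 312, 331, 337, 353 and 358 on Con 1 to Con 5, and 248, 271 and 313 on FKO 1 to FKO 3. Only FKO 3 reached into the Con range, by passing the lowest array, Con 1. Hsph1 had a log2 fold change of −0.34 (standard error 0.097, limma unadjusted p = 0.00819, adjusted p = 1, exact permutation p = 0.0357). It stayed between −0.44 and −0.25 when each array was left out in turn.

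Hspa4 encodes a constitutive HSP110. Its probe was dim, at 129, 127, 133, 127 and 129.8 on the Con arrays and 115, 124 and 123 on the FKO arrays, within 2 times the background limit throughout. The groups did not overlap, and the log2 fold change of −0.15 (standard error 0.063, exact permutation p = 0.0179, the smallest that 5 against 3 arrays allow) is compressed at such a level. A second Hspa4 probe, under the limit on every array, went the other way. It read 94.0 to 96.7 on the Con arrays and 96.6 to 98.3 on the FKO arrays (exact permutation p = 0.0536).

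Hspa1a, the stress-induced cytosolic HSP70 whose promoter is shown above, was dim as well. It read 121, 140.3, 128, 123 and 137 on Con 1 to Con 5, and 153, 122 and 176 on FKO 1 to FKO 3. FKO 3 and FKO 1 were its highest arrays and FKO 2 lay near the bottom of the Con range, with a log2 fold change of 0.27 (standard error 0.16, exact permutation p = 0.179). The FKO arrays that were high are those with the high epididymis sums, and without Con 2, FKO 1 and FKO 3 the value was −0.087. The part of other tissue in it was not tested. Hspa1b, a near-identical copy, and Hsp90ab1 were not analysed here, and signal of the Hspa1a probe cannot be assigned to 1 of the 2 copies with certainty.

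Hspa2, an HSP70 best known from meiosis in male germ cells, read 436, 597, 490.1, 625 and 395 on the Con arrays and 466, 375 and 364 on the FKO arrays, with Con 4 and Con 2 highest and FKO 3 and FKO 2 lowest. For this probe the log2 fold change was −0.36 (standard error 0.18, exact permutation p = 0.125) and the groups overlapped. A second, dimmer Hspa2 probe gave −0.14 (standard error 0.12) and another order at the bottom. It was lowest on Con 5 at 173, with 183, 175 and 184 on FKO 1 to FKO 3. Hspa12b, a distant relative known from endothelium, had a value of −0.13 (standard error 0.12). Its lowest array, FKO 3 at 263, was also the lowest in the summed intensity of 7 endothelial markers (2195 on FKO 3, 2620 to 3898 on the Con arrays and 3236 and 4319 on FKO 1 and FKO 2), and the part of endothelium in it was not tested. Hsp90aa1, the inducible cytosolic HSP90, lay close to background at 110.5 to 132, with a log2 fold change of −0.085 (standard error 0.098).

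The mitochondrial members were read next, because the organelle's HSP70, its chaperonin and its import motor act on the same proteins. Hspd1 encodes HSP60, the barrel of the chaperonin. It read 1475, 1742, 1817, 1600.5 and 1709 on Con 1 to Con 5, and 1289, 1574 and 1433 on FKO 1 to FKO 3. FKO 1 and FKO 3 were the lowest arrays and FKO 2 lay inside the Con range. For this probe the log2 fold change was −0.23 (standard error 0.095, limma unadjusted p = 0.0416, adjusted p = 1, exact permutation p = 0.0536), and it was −0.15 without FKO 1 and −0.065 without Con 2, FKO 1 and FKO 3. A second, dimmer Hspd1 probe gave −0.39 with a standard error of 0.37, at 438, 234, 519, 468 and 469 on Con 1 to Con 5, and 342, 479 and 207 on FKO 1 to FKO 3. Con 2 was nearly as low as FKO 3 there.

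Hspe1 encodes HSP10, the lid of the same chaperonin, and shares the promoter shown above. Its intensities were 307, 398, 288, 324 and 365 on Con 1 to Con 5, and 270.1, 290.2 and 301 on FKO 1 to FKO 3. The FKO arrays lay at the bottom of the Con range and overlapped with Con 3 alone. Its log2 fold change of −0.25 (standard error 0.12, exact permutation p = 0.143) was close to that of Hspd1. Hspe1 was highest on Con 2 and Hspd1 on Con 3.

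Hspa9, the mitochondrial HSP70, read 5404, 5367, 5767, 4807 and 5555 on the Con arrays and 5465, 5491 and 4687 on the FKO arrays. Its 2 probes had log2 fold changes of −0.047 and 0.047 (95% interval of the brighter −0.24 to 0.15). Dnajc19, of the inner membrane import motor, had a log2 fold change of 0.10 (standard error 0.18) by its brightest probe. That probe had Con 4 at 1728 and Con 5 at 3024 as its extremes, so that its whole spread lay within Con. Dimmer Dnajc19 probes gave −0.020 and −0.083 (standard errors 0.11 and 0.063) and were lowest on FKO 3 and FKO 1. Dnaja3, Dnajc15 and Dnajc30, the other J-domain proteins on the list of mitochondrial members used here, had log2 fold changes of −0.087, −0.055 and −0.091. Of the 7 measured members of that list 6 had a negative and 1 a positive sign by their brightest probes, with a median of −0.087. The list may not hold every mitochondrial member, and 56.6% of all genes had a negative sign.

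**Figure D2:**
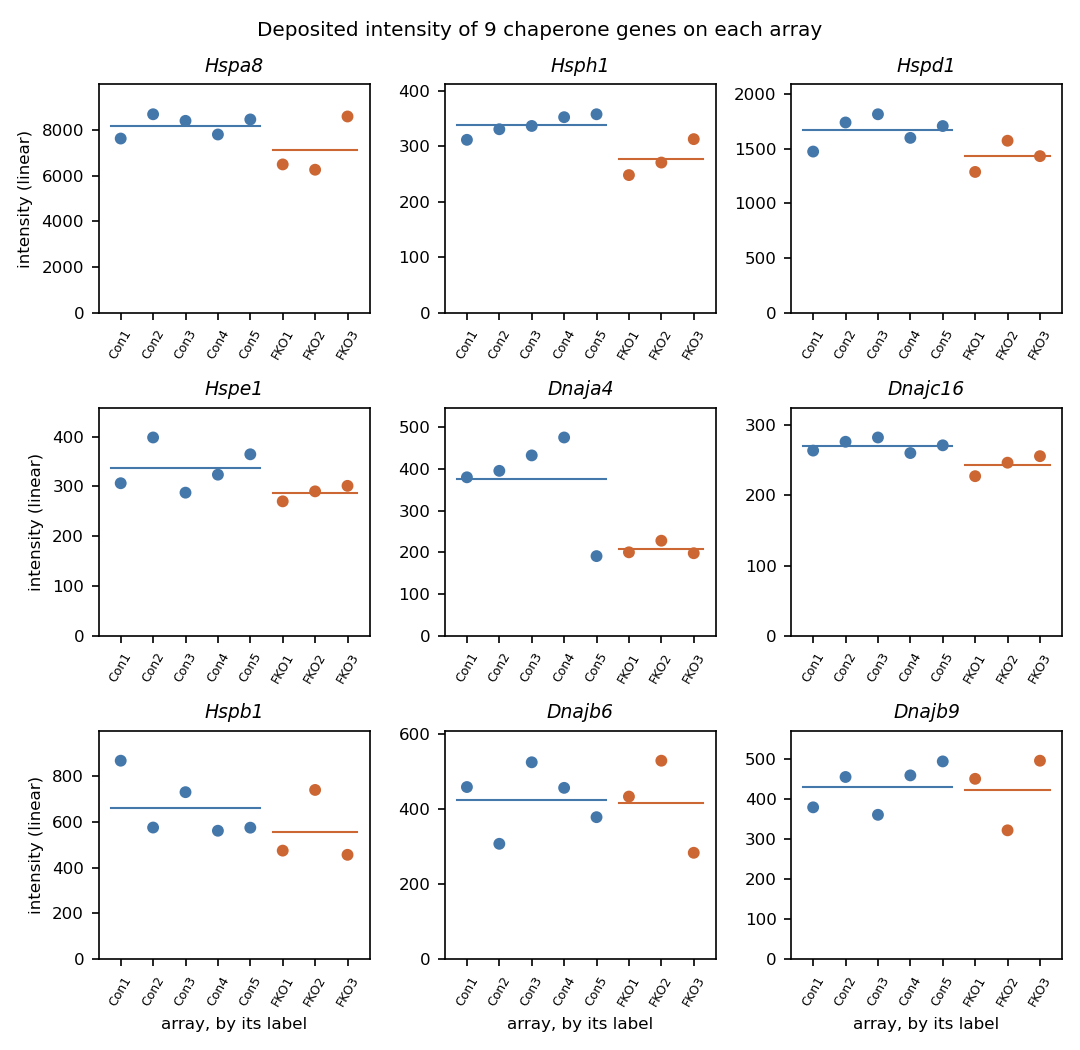
Deposited intensity (vertical axis, linear, from 0) of 9 members on each array (horizontal axis), blue for Con and orange for FKO, with the arithmetic mean of each group as a line. Con 5 sits with the FKO arrays for Dnaja4, and Con 1, Con 3 and FKO 2 are the highest arrays for Hspb1 and the lowest for Dnajb9.

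Among the small heat shock proteins, Hspb6 encodes HSP20, which is abundant in muscle. It read 1948, 3534, 2048, 2333 and 2013 on Con 1 to Con 5, and 1766, 1881 and 1791 on FKO 1 to FKO 3. All FKO arrays lay below all Con arrays, and Con 2 stood far above the rest. Between the labels the log2 fold change was −0.36 (standard error 0.19, exact permutation p = 0.0893) and −0.20 without Con 2. The 8 smooth muscle markers, 7 of them above the limit, had their highest sum on the same array, 15063 on Con 2 against 5421 to 7864 on the other Con arrays and 5956 to 9600 on the FKO arrays, and the part of smooth muscle in the Hspb6 value was not tested. Without Con 2, FKO 1 and FKO 3 it was −0.15.

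Hspb7, known from heart and muscle, read 125, 148, 116, 178 and 127 on the Con arrays and 105, 111 and 122 on the FKO arrays, near background. Con 4 was its highest array and FKO 1 its lowest, and the log2 fold change was −0.42 (standard error 0.19, limma unadjusted p = 0.0592, exact permutation p = 0.107). The smooth muscle sum on Con 4 was 7864. The 6 skeletal muscle markers above the limit had a negative sign throughout, and all 10 of that list summed to 5643 to 6983 on the Con and 5612 to 5993 on the FKO arrays. Most of each sum came from Myl1, at 4325 to 5453 over all arrays. Acta1 (154 to 917) and Tnnc2 (113 to 568) varied more and weighed less in it. The part of muscle in the Hspb7 value was not tested.

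Hspb1, which encodes HSP25 of the mouse and shields actin filaments, varied widely within both groups. It read 869, 576, 731, 562 and 576 on Con 1 to Con 5, and 475, 741 and 457 on FKO 1 to FKO 3. Con 1, FKO 2 and Con 3 were high and FKO 3 and FKO 1 low, and the groups overlapped, with a log2 fold change of −0.28 (standard error 0.22, exact permutation p = 0.321). Cryab, a related small chaperone that the symbol rule leaves out, read 1524, 709, 1134, 882 and 825 on the Con arrays and 670.4, 1489 and 728 on the FKO arrays, with Con 1, FKO 2 and Con 3 again highest. Its log2 fold change was −0.13 (standard error 0.33), and without Con 2, FKO 1 and FKO 3 it was 0.51 for Cryab and 0.15 for Hspb1. Hspb8, which works with Bag3 in the removal of unfolded proteins, had 0.0072 (95% interval −0.38 to 0.39) over intensities of 607 to 962. Hspb2, near background, had −0.030 (standard error 0.11).

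Dnaja4, a cytosolic A-class J-domain protein, had the largest negative value of the set. Its intensities were 379.9, 395, 432, 475 and 191 on Con 1 to Con 5, and 200.2, 228 and 198 on FKO 1 to FKO 3. Con 1 to Con 4 lay between 380 and 475, whereas Con 5 was lower than all FKO arrays. Dnaja4 had a log2 fold change of −0.91 (standard error 0.32, limma unadjusted p = 0.0201, adjusted p = 1, exact permutation p = 0.125). Without Con 5 the value was −1.17 with an adjusted p of 0.0218 in limma, where 15 probes and 0.155% of all genes passed. Con 5 was the only array that made the groups overlap, so that this fit drops it and its p is no support.

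Smaller values were measured for the other A-class members. Dnaja1, a cytosolic partner of HSP70, lay at the background limit (100.4 to 112) with a log2 fold change of 0.017. Dnaja2 had −0.084 (standard error 0.063).

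Dnajb1 is HSP40, the main stress-induced partner of HSP70. It read 1418, 1391, 1528, 1449 and 1578 on Con 1 to Con 5, and 1689, 1367 and 1856 on FKO 1 to FKO 3. FKO 3 and FKO 1 were highest and FKO 2 was lowest of all arrays. The difference was 0.15 on the log2 scale (standard error 0.10, exact permutation p = 0.214), and −0.13 without Con 2, FKO 1 and FKO 3. Of the 10 measured heat-induced genes, Dnajb1 and Hspa1a had their 2 highest values on FKO 3 and FKO 1, and Hsph1 and Hspd1 their lowest on FKO 1. These genes are named for their order, which was not tested. FKO 1 and FKO 3 were the highest 2 arrays for 7.24% of all genes, and FKO 1 was the lowest array for 11 of the 45 members.

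Dnajb6, which keeps aggregation-prone proteins soluble, spread over both groups at 458, 307, 524, 456 and 378 on the Con arrays and 432, 528 and 283 on the FKO arrays. FKO 2 was its highest and FKO 3 its lowest array, the log2 fold change was −0.066 (95% interval −0.65 to 0.52), and a second probe gave −0.13 with the same extremes. Dnajb13, a protein of the ciliary axoneme best known from sperm, read 142, 233, 152, 258 and 204 on the Con arrays and 157, 138 and 183 on the FKO arrays, with Con 4 and Con 2 highest and a log2 fold change of −0.36 (standard error 0.27, exact permutation p = 0.304). The testis germ cell markers (8 of 10 with a probe, 5 above the limit) summed to 826, 968, 829, 971 and 859 on Con 1 to Con 5, and 1359.7, 823 and 2025 on FKO 1 to FKO 3. Within each label this sum and Dnajb13 ranked the arrays in the same order, while the sum was highest on FKO 3 and FKO 1 and Dnajb13 on Con 4 and Con 2, and the part of germ cell RNA in the Dnajb13 value was not tested. Dnajb2, Dnajb4 and Dnajb12 had log2 fold changes of −0.15, −0.13 and 0.029.

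The ER has its own J-domain proteins, several of them switched by the unfolded protein response. Dnajc10 encodes ERdj5, a J-domain protein that reduces disulfide bonds so that failed proteins can leave the ER. It read 748, 934, 744, 761 and 635 on Con 1 to Con 5, and 2853, 678 and 4520.4 on FKO 1 to FKO 3. FKO 1 and FKO 3 stood several-fold above every other array and FKO 2 lay within the Con range. Its log2 fold change was 1.48 (standard error 0.54, 95% interval 0.25 to 2.71, limma adjusted p = 1, exact permutation p = 0.0893). Without FKO 2, which leaves the FKO arrays with the high epididymis sums, it was 2.31 (limma adjusted p = 0.00336, in a fit where 194 probes and 1.65% of all genes passed). That fit drops the only FKO array inside the Con range, so its p is no support. Without Con 2, FKO 1 and FKO 3 the log2 fold change was −0.093. A second, dim Dnajc10 probe had its highest values on the same arrays, at 115, 106.3 and 113 on FKO 1 to FKO 3 against 102, 102, 103, 102 and 107 on the Con arrays (log2 fold change 0.17). The summed epididymis markers followed the same order at the top, with 26591 on FKO 3, 18689 on FKO 1 and 4547 on Con 2, and Adam7 among them read 3939, 117 and 7925 on FKO 1 to FKO 3 against 142, 531, 196, 221 and 132 on the Con arrays. The part of epididymal RNA in the Dnajc10 value was not tested.

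**Figure D3:**
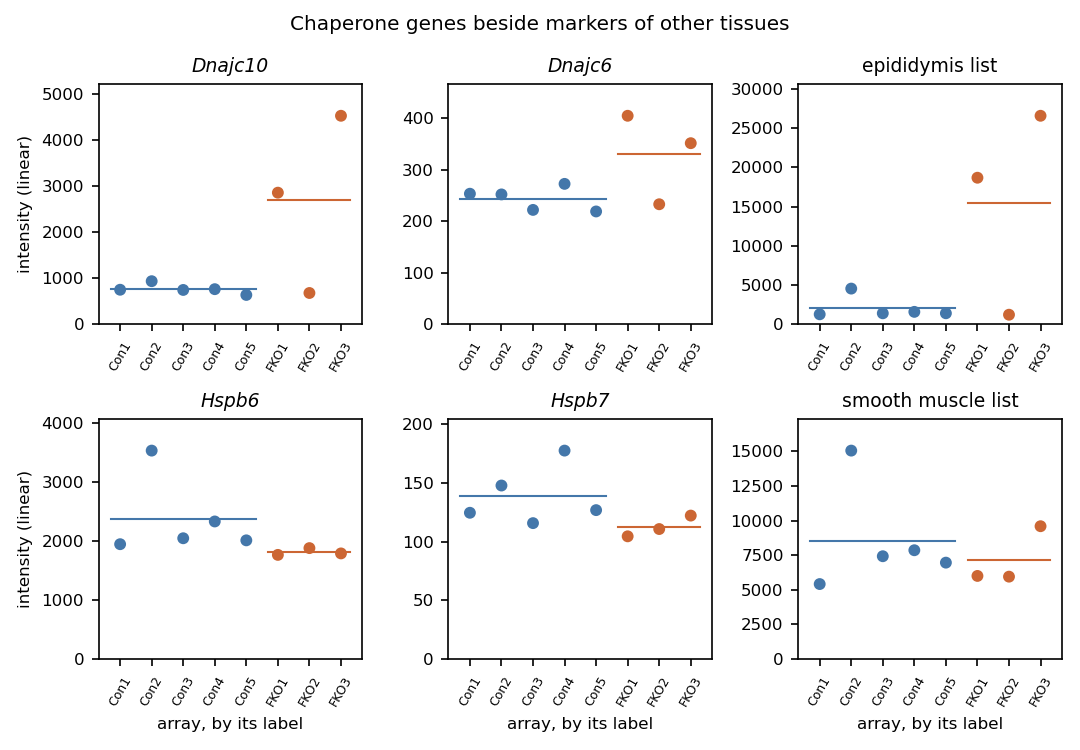
Intensity (vertical axes, linear, from 0) of Dnajc10, Dnajc6, Hspb6 and Hspb7 on each array (horizontal axis), beside the summed intensity of the epididymis and smooth muscle marker lists. Blue is Con, orange is FKO and lines are arithmetic group means. Dnajc10 and the epididymis sum are both high on FKO 1 and FKO 3, and Hspb6 and the smooth muscle sum are both highest on Con 2.

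Dnajb9 encodes ERdj4 and Dnajc3 encodes P58IPK, both induced by unfolded proteins in the ER. Dnajb9 read 379, 454, 359.9, 458 and 493 on the Con arrays and 449.7, 321 and 495 on the FKO arrays, with FKO 2 lowest and FKO 3 and Con 5 highest, and a log2 fold change of −0.043 (95% interval −0.45 to 0.36). Dnajc3, whose ER stress element is printed above, read 927, 686, 812, 752 and 762 on the Con arrays and 736, 907 and 691 on the FKO arrays, with Con 1 and FKO 2 highest, and had −0.022 (95% interval −0.31 to 0.27). The 2 genes thus differed in the order of the arrays, FKO 2 being the lowest for Dnajb9 and near the top for Dnajc3. Hspa5, the ER HSP70 that both proteins assist and the best-known carrier of the same element, had 0.099 (standard error 0.093) over dim intensities of 124 to 146, and Hsp90b1, the HSP90 of the ER, had 0.24 (standard error 0.11, exact permutation p = 0.107), highest on FKO 3 and FKO 1. Dnajb11 was not analysed here.

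Dnajc6 encodes auxilin, which recruits HSP70 to clathrin coats. It read 254, 252, 222, 273 and 219 on Con 1 to Con 5, and 405, 233 and 352 on FKO 1 to FKO 3. FKO 1 and FKO 3 lay above every Con array and FKO 2 inside the Con range, and a second probe had the same order at the top (log2 fold changes 0.47 and 0.42, limma unadjusted p = 0.0441 and 0.0601, exact permutation p = 0.0893 for both). Without FKO 2 the brighter probe gave 0.73 (limma adjusted p = 0.0383, in the same fit where 1.65% of all genes passed). As for Dnajc10, the array left out was the only FKO array inside the Con range, so this p is no support. Without Con 2, FKO 1 and FKO 3 the brighter probe gave −0.055. Here FKO 1, not FKO 3, was the highest, whereas the epididymis sum was highest on FKO 3, and the part of epididymal RNA in it was not tested either.

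FKO 1 and FKO 3 were the highest 2 arrays for 5 members (Dnajb1, Dnajc10, Dnajc5, Dnajc6 and Hspa1a), or 11.1%, against 7.24% of all genes, and the lowest 2 for 4 (Hspd1, Hspa4, Hspb1 and Hspb6), or 8.89%, against 7.28%. No test was made of these counts.

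Dnajc5, the cysteine string protein of secretory vesicles, was the member with every FKO array above every Con array. It read 713, 722, 702, 726 and 721 on Con 1 to Con 5, and 745, 731 and 928 on FKO 1 to FKO 3. The step between the highest Con and the lowest FKO array was small and FKO 3 alone stood apart, with a log2 fold change of 0.16 (standard error 0.088, limma unadjusted p = 0.104, exact permutation p = 0.0179). Dnajc16, an ER membrane protein, showed the opposite order. Its intensities were 263, 276, 282, 260.0 and 271 on the Con arrays and 227, 246 and 256 on the FKO arrays, all FKO arrays below all Con arrays, with −0.19 (standard error 0.068, limma unadjusted p = 0.0247, adjusted p = 1, exact permutation p = 0.0179).

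The other C-class members had log2 fold changes between −0.087 and 0.080. They include Dnajc2, which sits at the ribosome (−0.033, standard error 0.18), Dnajc7, which links HSP70 with HSP90 (0.069, standard error 0.13), Dnajc24, which takes part in the making of diphthamide (−0.039), and Dnajc8 of the spliceosome (−0.087). Dnajc4 ranged over 166 to 259.6 and Dnajc12 over 114 to 153 with group differences of 0.031 and −0.014, so that their spread lay within the groups. Dnajc17, Dnajc18 and Dnajc27 lay near background on all arrays.

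**Figure D4:**
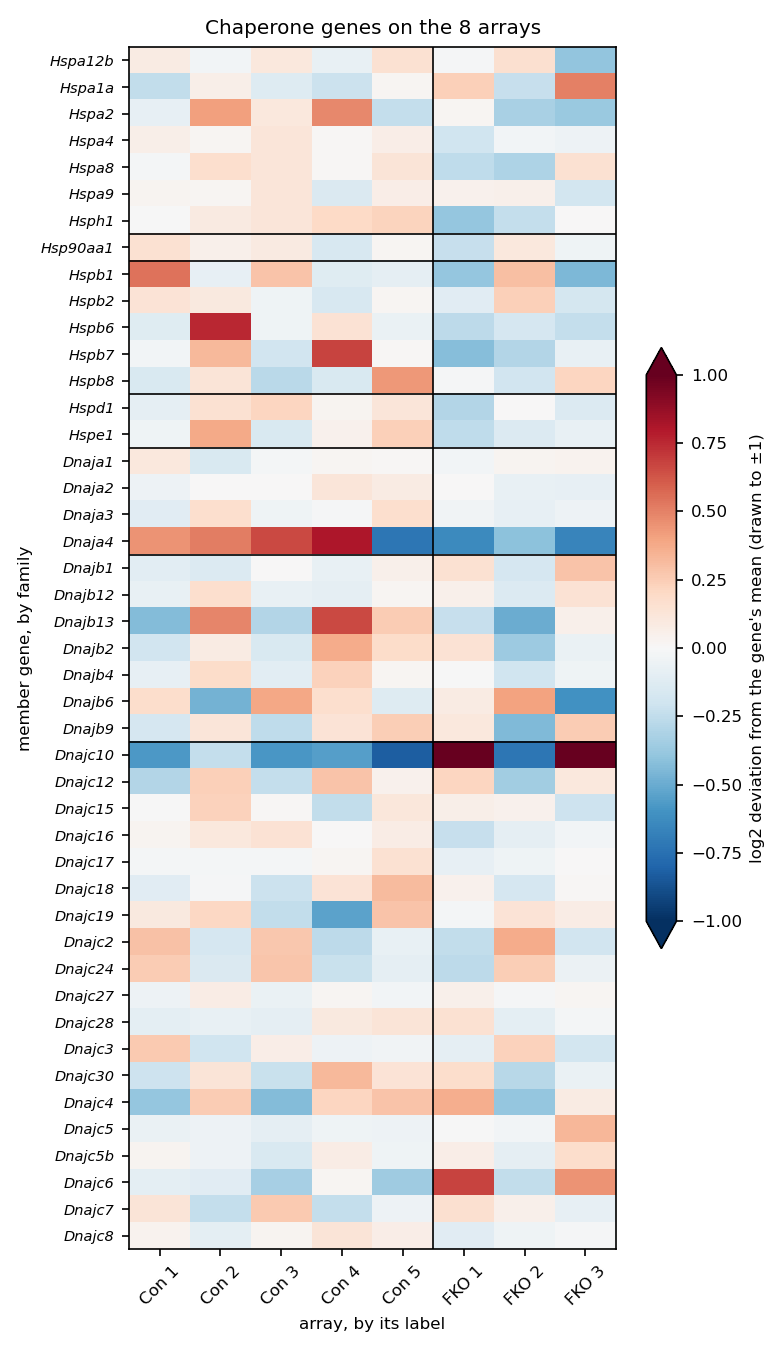
Deviation of each member (vertical axis, by family) from its own mean over the 8 arrays (horizontal axis), on the normalized log2 scale and drawn to 1 in either direction, red above and blue below. FKO 1 and FKO 3 are dark red for Dnajc10 and Con 2 for Hspb6, and Con 5 is blue with the FKO arrays for Dnaja4.

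The spread of the members between arrays is given beside that of all genes, with no test. The range over the 8 arrays had a median of 0.54 on the log2 scale, beside 0.44 over all genes, and passed 1 for 7 members (15.6%) against 9.77% of all genes. On all arrays 15 of the 45 members lay under 2 times the background limit, against 4532 of the 9686. By array, Con 1 to Con 5 were highest for 4, 7, 6, 10 and 5 members. FKO 1 to FKO 3 were highest for 3, 4 and 6. The lowest array was Con 1 to Con 5 for 2, 3, 6, 3 and 3 members. It was FKO 1 to FKO 3 for 11, 10 and 7. These counts by array were not made over all genes, so they give no result about the members.

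Co-chaperones and other chaperones outside the set were read beside it. Of 24 measured co-chaperone genes 9 had a positive and 15 a negative sign (median −0.012), of 21 other chaperone genes 5 and 16 (median −0.027), and 1 of each list had an unadjusted p under 0.05, both lower. Over all genes 56.6% had a negative sign, and 4.69% had a limma unadjusted p under 0.05, with 2.15% in the lower direction. No test was made of the counts in these lists. St13, Cct4 and Unc45a are named because their limma p was among the smallest of these lists, and they do not stand for them. St13, the HSP70-interacting protein Hip, read 287, 240.5, 286, 277 and 278 on the Con arrays and 224, 249.9 and 204 on the FKO arrays, with −0.33 (standard error 0.10, limma unadjusted p = 0.0111, adjusted p = 1, exact permutation p = 0.0357). Cct4, a subunit of the cytosolic chaperonin, had −0.19 (standard error 0.078, exact permutation p = 0.0536), and Unc45a, a myosin chaperone, −0.22 (standard error 0.11). Among genes around HSF1, Hsf2 had 0.015 (standard error 0.075) and the inhibitor Hsbp1 −0.050 (standard error 0.12). The Hsf2 probe lay near background at 107.7 to 119.6. Hsf1 was not analysed here, and the activity of HSF1 was not measured. The 8 measured early genes of tissue handling, such as Fos and Jun, had a median of −0.070.

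The choice of members rests on a level limit, and the genes next to it were near background. Just inside it were Dnajc28 and Dnajc5b, each above the limit on 3 arrays (101 to 112 and 98.4 to 113), and Dnaja1 on 6. Just outside were Dnajb3 and Dnajc11, each above it on 2 arrays (98.7 to 107.7 and 99.9 to 109). The other 13 genes below it were Dnajb5, Dnajb7, Dnajb8, Dnajc1, Dnajc14, Dnajc5g, Dnajc9, Hspa12a, Hspa13, Hspa14, Hspa1l, Hspa4l and Hspb3, and no level is given for them.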

How the data were processed

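Each mouse gave 1 sample of pgWAT RNA, hybridized to an Illumina MouseRef-8 v2.0 beadchip. Groups were taken from the labels, which give 5 Con and 3 FKO mice. The methods give these numbers the other way round and start the diet at a younger age than the labels. The deposited intensity values had been quantile-normalized by the authors, without background subtraction. The software and the summary over beads are not given in the sources used here. A table of 16 non-normalized columns names no sample and was not used. Of 25697 probes, 23978 carry 1 gene symbol and 1719 none. All 86 probes of the set match RefSeq by Entrez ID with the same symbol.

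The background limit lay 7.5 intensity units above the mode of all values, 98.5, and a probe above it on 3 or more arrays was tested (51.7 to 51.8% of probes per array lay above it). With limma 3.58.1 (R 4.3.3) the background was corrected by normexp at an offset of 50, quantile normalization and log2 followed, and each probe was fitted by group (lmFit and eBayes, two-sided, Benjamini-Hochberg over all tested probes, threshold 0.05). Intensities in the text are the deposited values and fold changes are from the fit. Exact permutation tests of the difference of log2 means ran over all 56 divisions of the arrays, with a smallest p of 0.0179. The equal-variance t-test of the methods was run as an alternative. A gene is given by its brightest probe. The number of arrays limits the precision. The code was tested on simulated data.

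Named with values were the 8 members with the widest range, the 8 with the smallest p, the 8 brightest, a list chosen by role and 6 genes of the partner lists. Of these 6, St13, Cct4, Hsp90b1 and Unc45a were taken for the smallest limma p of those lists. Hspa2, Hspa12b, Dnajc5 and the remaining members were added after their values were seen. Members and lists were chosen with earlier results of these data known. Alternatives were no background correction, an offset of 16, median centring, no and a stricter level filter, trended and robust eBayes, array weights, the replicate number as a block, all probes, the t-test, and arrays left out. Figures were drawn with matplotlib 3.10.9.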

Additional observations from a re-analysis of the deposited data

Results flagged for a closer look

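Among 31 genes tried within the 5 Con arrays, 2 had 1 array far from the others, and chance alone sets an array apart in about 1 of 20 groups. Hspb6 read 3534 on Con 2 and 1948 to 2333 on the other Con arrays, a gap of 0.757 of the whole range. St13 read 240.5 on Con 2 and 277 to 287 on the others, a gap of 0.775 of the range. Con 2 also held the highest smooth muscle sum of all arrays (15063) and the highest epididymis sum among the Con arrays (4547).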

How the results depend on the processing

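No member passed limma in the fit reported or under the alternatives of processing, filter, variance model, array weights, the replicate block or all probes, and 0 passed the t-test of the methods on log2 values, after Benjamini-Hochberg or on linear values. Leaving out 1 array gave 0 to 2 members past the threshold, Dnaja4 without Con 5 (0.155% of all genes passed) and Dnajc10 and Dnajc6 without FKO 2 (1.65%). In each case the array left out was the only one that made the groups overlap, so these calls are no support. The 7 members with an unadjusted p under 0.05 were 15.6% against 4.69% of all genes. They became 4 with the stricter filter, which left 28 members (14.3% against 2.76%), 11 with array weights (24.4% against 9.41%), 1 with the replicate block (2.22% against 1.73%) and 2 without Con 2, FKO 1 and FKO 3 (4.44% against 0.609%). With each array left out they were 2 to 11, namely 2 without FKO 1 (4.44% against 2.69%), 3 without FKO 3 (6.67% against 1.98%), 11 without FKO 2 (24.4% against 10.9%) and 5 without each Con array (11.1% against 3.36% to 4.34%). The replicate numbers did not pair the arrays, since the deviations of arrays with the same number correlated at −0.56, −0.70 and −0.41 and the FKO arrays were nearest to Con 4, Con 1 and Con 2. The 4 members whose groups did not overlap (8.89% against 2.65% of all genes) became 4 to 10 with each array left out, with 10 without FKO 2 (22.2% against 15.9%) and 8 without FKO 3 (17.8% against 5.45%). They became 16 without Con 1, Con 3 and FKO 2 (35.6% against 24.5%) and 24 without Con 2, FKO 1 and FKO 3 (53.3% against 34.1%). The median of the members kept its sign and moved by less than the spread between Con arrays.

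Of the values of 31 named genes under 18 alternatives, 506 kept their sign and their side of the threshold, 3 passed it newly and 42, in 17 genes, turned sign. With array weights Dnaja1 was −0.0065 and Dnajb9 0.084, and with the replicate block Dnajb9 was 0.075. Without Con 1, Con 3 and FKO 2, Dnajb9 was 0.012 and Hspb8 −0.033. Without Con 2, FKO 1 and FKO 3, which leaves 1 FKO array assumed to vary like the Con arrays, the values that turned sign were Dnaja1 −0.0044, Dnajb1 −0.13, Dnajb6 0.25, Dnajc10 −0.093, Dnajc15 0.077, Dnajc3 0.17, Dnajc6 −0.055, Hsp90aa1 0.080, Hspa1a −0.087, Hspa9 0.032, Hspb1 0.15, Hspb8 −0.16, Cryab 0.51, Hsp90b1 −0.0099 and Ogt −0.39. With each array left out, the ranges that crossed 0 were −0.019 to 0.045 for Dnaja1, −0.29 to 0.22 for Dnajb6, −0.18 to 0.16 for Dnajb9, −0.14 to 0.063 for Dnajc3, −0.12 to 0.030 for Dnajc15, −0.022 to 0.18 for Dnajc19, −0.17 to 0.0021 for Hsp90aa1, −0.087 to 0.029 for Hspa9, −0.099 to 0.12 for Hspb8, −0.51 to 0.094 for Cryab and −0.11 to 0.34 for Ogt. The cause was not tested. With 15 members under 2 times the background limit, small folds of dim probes are compressed.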
